A study of Homo sapiens with 6 samples.

Results

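The 10 transcripts described here encode cytosolic sensors of foreign or misplaced nucleic acid and the adaptors that carry their signal, with the endosomal receptor TLR3 beside them. They were taken by symbol from the count table, which held 1 row for each, so that all 10 were found among 60835 distinct symbols. The cells were PANC-1, an established line of pancreatic epithelioid carcinoma, with SMAD4 knocked out. Into them either the R272K form of SMAD4, in which lysine stands for arginine, or wild-type (WT) SMAD4 was transfected, and both groups were sampled on day 3 with 3 libraries each. All 6 libraries share the knockout background. How many clones the knockout line came from is not stated in the labels, and knockout cells without SMAD4 were not analysed here. The series is about methylation of SMAD4 on arginine by PRMT1, and the question put here is whether the transcripts of the sensing machinery differ with the form of SMAD4.

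Cells keep watch on their cytosol with receptors for double-stranded RNA, chiefly RIG-I (RIGI) and MDA5 (IFIH1), and with cGAS (CGAS), an enzyme that answers DNA with a cyclic dinucleotide. The RNA receptors signal through MAVS on mitochondria and the cyclic dinucleotide through STING (STING1) on the endoplasmic reticulum, and both routes reach the kinase TBK1 and the transcription factor IRF3, which switches on interferon genes. Interferon in turn raises the transcripts of several of the sensors in many epithelial cells.

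Depth over distinct symbols was 15148435 to 15406781 counts in the R272K libraries and 14776148 to 17706201 in the WT libraries. SMAD4 was lower in every R272K library, at 40.5, 45.5 and 43.5 CPM (counts per 1000000 of the scaled library total), against 83.2, 93.4 and 88.8 CPM in the WT libraries, with a log2 change of -1.03 (SE 0.0749, edgeR adjusted p = 6.29e-06). The substitution and the amount of SMAD4 transcript therefore cannot be told apart in any comparison below. WT replicate 1 stood apart from the other libraries, at -31.3 on the first principal component against -9.56 to 15.6. Values of some members and list genes are therefore also given without it, though not of all that moved with it. Levels are also given as TPM (transcripts per 1000000, a level scaled by gene length). Summed TPM of 6 epithelial and ductal markers was 4934 to 5409 in R272K and 4124 to 4613 in WT libraries. Most of it was KRT8 and KRT18, with means of 2748.5 and 1457.8 TPM, while KRT7 and EPCAM stood at 7.58 and 8.53 TPM. Log2 fold changes were 0.32 for KRT8, 0.11 for KRT18, 0.39 for EPCAM and 0.25 for SOX9. They were -0.10 for KRT19 and -0.13 for KRT7, and none of the markers was called. The part of this sum in the results was not tested. The 5 leukocyte markers summed to 7.93 to 10.7 TPM in R272K and 7.66 to 9.68 TPM in WT libraries, nearly all of it CD14 and ITGAM, while PTPRC and CD3E had 8 or fewer counts in each group. Acinar markers summed to at most 1.95 TPM, endothelial ones to at most 0.46 TPM and endocrine ones to at most 0.52 TPM, with SST at 0 in all libraries. Whether the replicates were separate cultures is not in the labels. Each p-value therefore reflects the spread among these 6 libraries alone, which may be technical.

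1 of the 10 transcripts, IFIH1, fell in R272K cells, 8 were tested and not called, and TLR3 had too few counts to be tested. Across all 15911 genes tested by edgeR's quasi-likelihood test, 0.528% were called lower and 0.685% higher at a Benjamini-Hochberg adjusted p below 0.05. The count of members called higher was 0 by edgeR, and also by DESeq2 and limma-voom, which called 0.918% and 0.672% of all genes higher. At an unadjusted p under 0.05 edgeR had 0 higher members and 2 lower ones, IFIH1 and EIF2AK2, beside 7.18% of all tested genes higher and 7.08% lower. The median log2 fold change of the 9 tested members was -0.08, beside -0.00 over all genes tested. In CPM the groups did not overlap for 2 members that were lower in R272K cells, IFIH1 and EIF2AK2, and for 2 that were higher, MAVS and STING1. Over all tested genes such separation was seen for 10.4% on the lower side and 10.9% on the higher side. In TPM it held for 1 lower member, IFIH1, and 1 higher member, STING1, beside 8.88% and 10.6% of all tested genes.

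**Figure D1:**
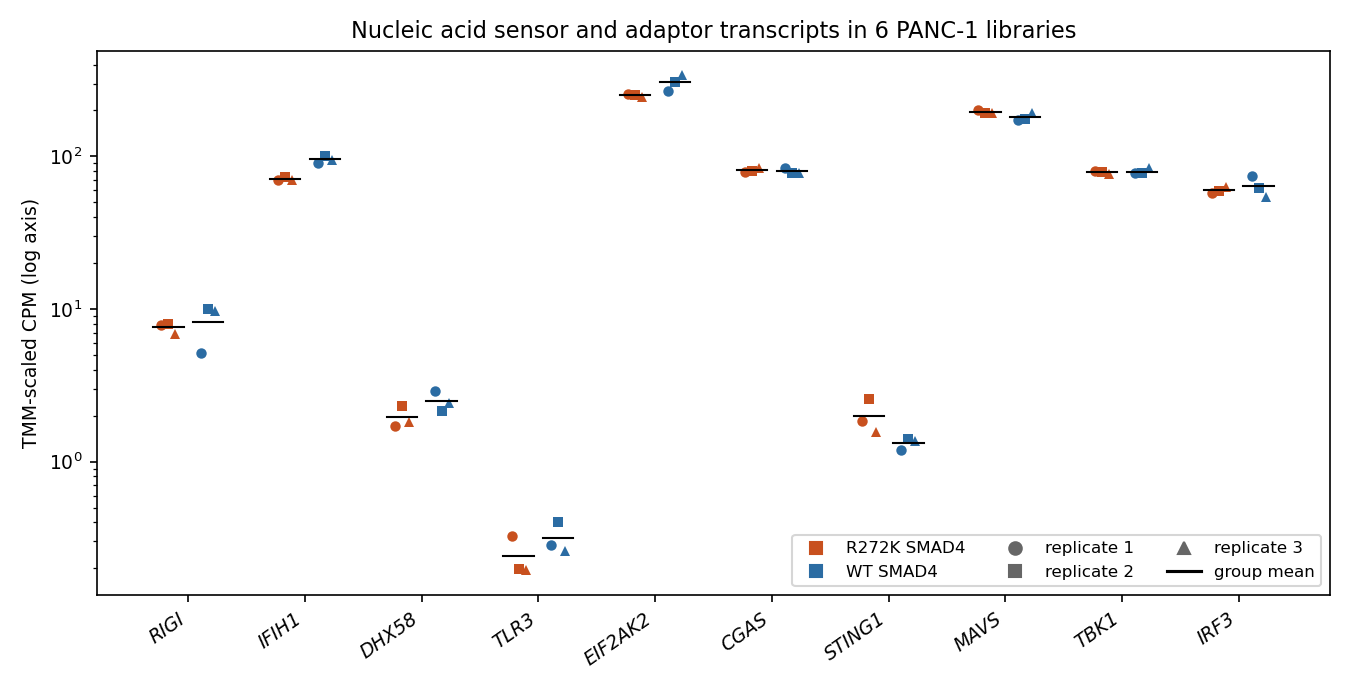
CPM of the 10 members on a log axis, with R272K libraries left of WT libraries for each gene, marker shapes for replicates and black lines for group means. IFIH1 lies at 69.8 to 72.8 CPM in R272K libraries, below the 91.1 to 101 CPM of the WT libraries, while RIGI, DHX58, CGAS, TBK1 and IRF3 overlap between groups.

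By level the members formed an abundant and a scarce set. Ordered by mean TPM over the 6 libraries, EIF2AK2 came first at 86.6, followed by CGAS at 78.9, IFIH1 at 70.3 and IRF3 at 67.3 TPM. The ranges of these 4 neighbours overlapped in each step of that order. MAVS at 50.3 TPM lay below IRF3 in every library, and TBK1 at 41.8 TPM lay below MAVS in every library although their ranges touched. A wide step separated TBK1 from RIGI at 5.04 TPM. DHX58 followed at 2.68 TPM and STING1 at 1.63 TPM, below DHX58 in all 6 libraries, and TLR3 was last at 0.145 TPM. The DNA arm thus joined an abundant sensor transcript to a scarce adaptor transcript, and the RNA receptors were represented mainly by IFIH1. Of the summed TPM of RIGI, IFIH1 and DHX58, IFIH1 made up 88.6 to 90.1% in R272K libraries and 89.9 to 91.9% in WT libraries.

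IFIH1 (ENSG00000115267, chr2:162267074-162318684, minus strand, GRCh38) encodes MDA5, the receptor for long double-stranded RNA. It had 1066, 1096 and 1077 counts in R272K replicates 1 to 3 and 1602, 1491 and 1451 counts in the WT replicates. These are 69.8, 72.8 and 70.0 CPM in R272K cells and 91.1, 101 and 94.8 CPM in WT cells. Every R272K library lay below every WT library, and the R272K libraries lay closer together than the WT libraries. The mean was 70.8 ± 1.65 CPM with R272K and 95.5 ± 4.74 CPM with WT SMAD4 (SD, n = 3 each), with a log2 change of -0.43 (SE 0.0664, edgeR adjusted p = 0.00544), or a change of -25.8%. Bulk RNA cannot tell fewer expressing cells from less RNA per cell, here or for any gene below. In TPM the groups were also separate, at 60.3 ± 1.08 with R272K and 80.3 ± 7.27 with WT (SD, n = 3 each). The call was lost without R272K replicate 1 (log2 fold change -0.42, adjusted p = 0.0754) or R272K replicate 3 (-0.42, adjusted p = 0.0763). It was also lost with limma on log2(TPM + 1) (-0.40, adjusted p = 0.11). The adjusted p ranged from 2.04e-07 to 0.208 over 20 alternatives whose log2 fold changes ran from -0.46 to -0.39.

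RIGI (ENSG00000107201, chr9:32455302-32526208, minus strand) encodes RIG-I, which binds short double-stranded RNA with triphosphate ends. Its level was 7.86, 8.03 and 6.82 CPM in R272K libraries, against 5.18, 9.98 and 9.67 CPM in WT libraries. The groups overlapped because WT replicate 1 was the lowest of all 6, with a difference of -47.3% from the mean of the other WT libraries. On all libraries the log2 fold change was -0.12 (SE 0.206, adjusted p = 0.839). Without WT replicate 1 it was -0.38 (SE 0.141, unadjusted p = 0.0114, edgeR adjusted p = 0.122). Every R272K library then lay below both remaining WT libraries, which follows from leaving out the lowest one. With all libraries and a smoothed dependence on gene length taken out of each, the log2 fold change was -0.13 (SE 0.192, edgeR adjusted p = 0.792). The sign turned without WT replicate 2 (0.04, adjusted p = 0.961) or WT replicate 3 (0.02, adjusted p = 0.979). RIGI was called in none of 20 alternatives, with adjusted p from 0.122 to 0.979.

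DHX58 (ENSG00000108771, chr17:42101404-42112714, minus strand) encodes LGP2, a relative of RIG-I and MDA5 that lacks their signalling domains and modulates them. It had 26, 35 and 28 counts in R272K libraries and 51, 32 and 37 counts in WT libraries. R272K replicate 2 lay above WT replicate 2 in CPM, so the groups overlapped. The log2 fold change was -0.36 (SE 0.234, adjusted p = 0.519), and -0.23 without WT replicate 1 (SE 0.284, adjusted p = 0.755). Summed counts were 89 in R272K and 120 in WT libraries. Their ratio after division by the groups' total counts was 0.770, with an exact 95% interval of 0.578 to 1.02 that covers counting error only. TLR3 (ENSG00000164342, chr4:186068911-186088073, plus strand), which detects double-stranded RNA in endosomes, had 5, 3 and 3 counts in R272K libraries and 5, 6 and 4 in WT libraries. Its sums were 11 in R272K and 15 in WT libraries, and their ratio scaled in the same way was 0.761 with an interval of 0.316 to 1.77, so a change was not detectable at this depth.

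EIF2AK2 (ENSG00000055332, chr2:37099210-37157522, minus strand) encodes PKR, a kinase that double-stranded RNA activates and that halts translation by phosphorylating the initiation factor eIF2. It was the most abundant member, at 258, 251 and 247 CPM in R272K libraries and 269, 308 and 339 CPM in WT libraries. The R272K libraries sat together below the WT libraries, but WT replicate 1 was only just above them. Means were 252 ± 5.49 CPM with R272K and 305 ± 35.2 CPM with WT SMAD4 (SD, n = 3 each), with a log2 change of -0.28 (SE 0.078, unadjusted p = 0.00335, adjusted p = 0.118), which was not called. In TPM the groups overlapped, at 77.6 to 80.2 with R272K and 78.1 to 109 with WT. EIF2AK2 was called lower without WT replicate 1 (-0.36, SE 0.0427, adjusted p = 2.56e-07), a fit in which 2.42% of all tested genes were called lower. It was also called after a smoothed dependence on gene length was taken out of every library (-0.35, adjusted p = 0.000162, 1.90% of all genes called lower) and with no filter on low counts (-0.28, adjusted p = 0.0103, 0.674% called lower). Over its 20 alternatives the adjusted p ranged from 2.56e-07 to 0.712. Longer genes had lower values in WT replicate 1 relative to the other WT libraries, with a Spearman's rho of -0.41 over genes, which are not independent replicates. The EIF2AK2 value with that dependence taken out is the one given above.

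**Figure D2:**
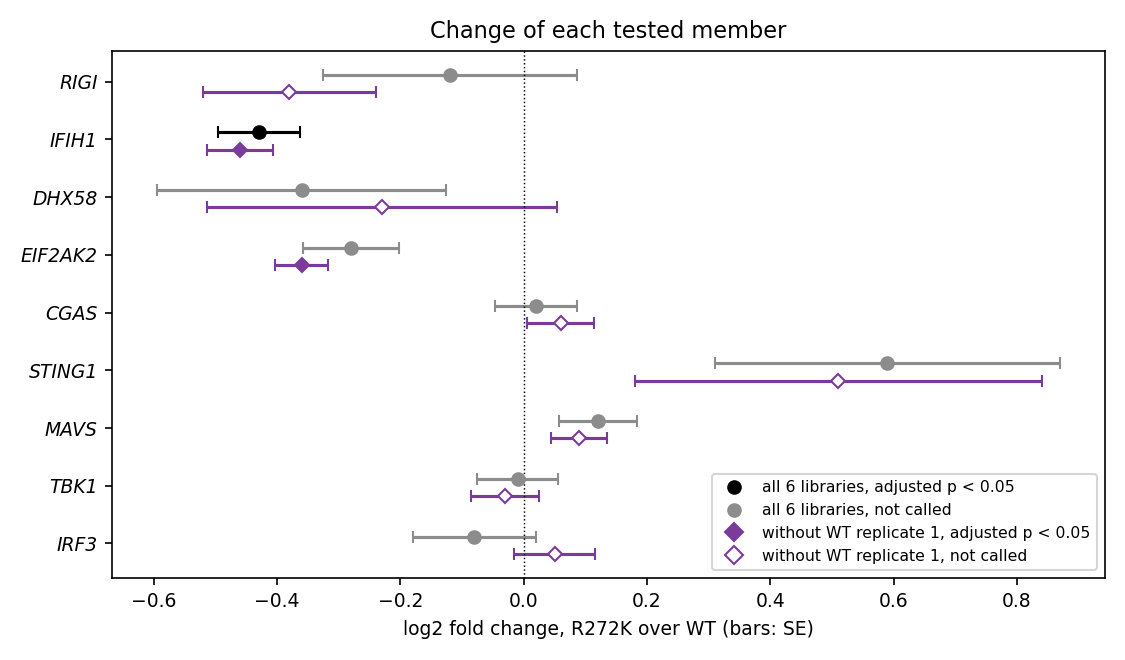
Log2 fold change of R272K over WT for the 9 tested members, with SE, on all 6 libraries (circles) and without WT replicate 1 (diamonds). IFIH1 is called in both fits, EIF2AK2 only in the fit without WT replicate 1 and the others in neither.

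Because interferon-responsive genes often carry the interferon-stimulated response element (ISRE) close to their start, promoter sequences of some members are shown. They are those of the 2 members that were lower in CPM, of RIGI as a tested receptor that overlapped, and of MAVS as an adaptor that was not lower. TLR3, a receptor that also overlapped but was not tested, was searched and its sequence is not shown. RefSeq entries on GRCh38.p14 matched 6 of the 10 members (RIGI, IFIH1, TLR3, EIF2AK2, MAVS and TBK1), and the promoters of DHX58, CGAS, STING1 and IRF3 were not analysed here. From 250 bases before to 50 after each start, both strands were searched for the core of the ISRE, spelled GAAA, any 2 bases, GAAA, and for AANNGAAA, the shorter motif of interferon regulatory factors, whose letters are also the last 8 of the ISRE core. The regions shown run from 210 bases before to 10 after the annotated start, at chr2:162318675-162318894 (minus strand) for IFIH1, chr2:37156971-37157190 (minus strand) for EIF2AK2, chr9:32526187-32526406 (minus strand) for RIGI and chr20:3846624-3846843 (plus strand) for MAVS. Capitals mark matches to either motif on either strand.
IFIH1: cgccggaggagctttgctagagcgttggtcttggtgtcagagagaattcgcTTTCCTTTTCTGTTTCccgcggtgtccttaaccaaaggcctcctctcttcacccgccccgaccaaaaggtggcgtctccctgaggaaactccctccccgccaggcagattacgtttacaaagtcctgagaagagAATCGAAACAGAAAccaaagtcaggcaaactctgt
EIF2AK2: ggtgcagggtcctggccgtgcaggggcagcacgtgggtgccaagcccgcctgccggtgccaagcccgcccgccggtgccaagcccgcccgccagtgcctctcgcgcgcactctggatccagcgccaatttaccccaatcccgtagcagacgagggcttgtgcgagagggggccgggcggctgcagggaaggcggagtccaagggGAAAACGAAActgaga
RIGI: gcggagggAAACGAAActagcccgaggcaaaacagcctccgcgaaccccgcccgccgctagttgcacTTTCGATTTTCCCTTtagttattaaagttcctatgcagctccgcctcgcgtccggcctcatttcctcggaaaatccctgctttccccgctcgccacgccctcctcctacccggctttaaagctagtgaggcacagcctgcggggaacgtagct
MAVS: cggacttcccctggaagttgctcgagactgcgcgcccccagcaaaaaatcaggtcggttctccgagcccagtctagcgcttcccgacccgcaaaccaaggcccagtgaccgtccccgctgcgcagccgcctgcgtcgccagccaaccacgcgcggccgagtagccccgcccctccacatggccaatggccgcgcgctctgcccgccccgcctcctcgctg

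The ISRE core was held by IFIH1, which was called lower, and by EIF2AK2, lower in all R272K libraries in CPM but not called. TLR3, which overlapped between the groups and was not tested, held it as well. IFIH1 had it on the coding strand from -21 to -12 and as a pair of overlapping matches on the other strand from -159 to -144. In EIF2AK2 the match ran across the start, from -6 to 4, and in TLR3 it lay on the other strand from -4 to 6. Positions count from the RefSeq start, which for each gene searched but IFIH1 lies inside the coordinates given for the gene. RIGI had 3 matches to AANNGAAA and none to the ISRE core, and MAVS and TBK1 had neither. The ISRE core occurred in 3.65% and the shorter in 23.2% of 27305 promoters of the same length. The SMAD box GTCTAGAC occurred in 0.201% of them and in none of the 6 members' windows. These are matches of letters and not measured binding sites, and their bearing on the levels of these genes was not tested.

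CGAS (ENSG00000164430, chr6:73413515-73452297, minus strand) encodes the cytosolic DNA sensor. It stood at 79.3, 79.8 and 84.3 CPM in R272K libraries and 84.3, 77.8 and 77.8 CPM in WT libraries. These groups overlapped, and the log2 fold change was 0.02 (SE 0.0669, edgeR adjusted p = 0.918). CGAS shares 4052 bases with DDX43 on the opposite strand, and the sources used here do not state whether counting was strand-specific, so reads of the 2 genes may not be fully told apart. DDX43 had 537 to 596 counts in R272K and 557 to 746 in WT libraries, with a log2 change of -0.19 (adjusted p = 0.351).

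STING1 (ENSG00000184584, chr5:139475533-139482935, minus strand) encodes the adaptor that binds the dinucleotide made by cGAS. It had 28, 39 and 24 counts in R272K libraries and 21 in each WT library. All R272K libraries were higher in CPM, with 1.99 ± 0.533 CPM in R272K and 1.33 ± 0.117 CPM in WT cells (SD, n = 3 each). The log2 fold change of 0.59 (SE 0.279, unadjusted p = 0.0554, adjusted p = 0.363) was not called, and STING1 was called in none of 20 alternatives, with log2 fold changes from 0.35 to 0.74. Summed counts of STING1 were 91 in R272K and 63 in WT libraries, and their ratio after division by the groups' total counts was 1.499 with an exact 95% interval of 1.08 to 2.101 for counting error alone. Of the members this was the fold change farthest from 0, at the second lowest level.

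No transcript of the common arm below the receptors was called. MAVS (ENSG00000088888, chr20:3846799-3876123, plus strand), the mitochondrial adaptor of RIG-I and MDA5, stood at 201, 193 and 193 CPM in R272K libraries and 172, 176 and 191 CPM in WT libraries. The groups were separate by a narrow margin in CPM but overlapped in TPM, and the log2 fold change was 0.12 (SE 0.063, adjusted p = 0.414). With the dependence on gene length taken out it was 0.04 (adjusted p = 0.804), within a range of adjusted p from 0.216 to 0.804 over 20 alternatives. TBK1 (ENSG00000183735, chr12:64452090-64502114, plus strand), the kinase that phosphorylates IRF3, stood at 79.8, 79.5 and 77.3 CPM in R272K libraries and 77.4, 77.9 and 83.6 CPM in WT libraries. The libraries of both groups were interleaved, with a log2 change of -0.01 (SE 0.0651, adjusted p = 0.943).

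IRF3 (ENSG00000126456, chr19:49659569-49665875, minus strand), the transcription factor at the end of the arm, stood at 57.6, 59.6 and 62.8 CPM in R272K libraries and 74.4, 62.2 and 54.2 CPM in WT libraries. Its WT values spanned those of R272K, and the log2 fold change was -0.08 (SE 0.0994, adjusted p = 0.748). Without WT replicate 1, the highest library, the sign turned, to 0.05 (SE 0.0653, adjusted p = 0.797), and IRF3 was called in none of 20 alternatives, with adjusted p from 0.266 to 0.921. IRF3 shares 734 bases with BCL2L12 on the opposite strand, which had a log2 change of 0.01 (adjusted p = 0.959).

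A ratio inside each library does not depend on the scaling between libraries. The log2 ratio of summed RIGI, IFIH1 and DHX58 TPM to summed MAVS, TBK1 and IRF3 TPM was -1.27, -1.19 and -1.29 in R272K libraries and -1.0, -0.73 and -0.79 in WT libraries. All R272K libraries were lower than all WT libraries, with means of -1.25 ± 0.052 in R272K and -0.84 ± 0.142 in WT libraries (SD, n = 3 each), a difference of -0.41. The value is given as a description, since IFIH1, which makes up most of the numerator, was known to be lower.

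Genes that work beside the members were counted from 5 lists. For comparison with each count on all 6 libraries, edgeR called 0.528% of all tested genes lower and 0.685% higher. Of 17 tested co-factors of RNA sensing, 2 fell, 0 rose and 15 were not called, with a median log2 fold change of -0.04. DDX60, a helicase linked to RIG-I-like receptors, fell to 17.1 ± 0.746 CPM in R272K cells, against 25.9 ± 2.01 CPM in WT cells (SD, n = 3 each), with a log2 change of -0.59 (SE 0.093, adjusted p = 0.00577). ZC3HAV1, an antiviral RNA-binding protein gene, fell to 120.1 CPM in R272K cells, against 160.5 CPM in WT cells (-0.42, SE 0.0751, adjusted p = 0.0158). DDX60 lost its call without R272K replicates 1 or 2, and ZC3HAV1 without any 1 of the R272K libraries or WT replicate 2, and both lost it in all 3 TPM fits. Over 20 alternatives the log2 fold change ran from -0.66 to -0.52 for DDX60 and from -0.49 to -0.36 for ZC3HAV1. Without WT replicate 1 the list had 3 called lower, with TRIM25 added (-0.18, adjusted p = 0.00696), beside 2.42% of all tested genes. It had 0 without R272K replicates 1 or 2, fits in which 0.202% and 0.232% of all tested genes were called lower. The ubiquitin ligase gene TRIM25, which acts on RIG-I, was not called on all 6 libraries (-0.11, adjusted p = 0.522). TLR7, TLR8 and TLR9 were not tested, with 14, 0 and 0 counts in R272K libraries together and 15, 1 and 0 in WT libraries.

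Among 17 tested scaffolds, adaptors and transcription factors of the interferon response, 2 fell, 0 rose and 15 were not called (median -0.04). Of all tested genes, 0.528% were called lower and 0.685% higher. IRF7, the interferon-induced relative of IRF3, fell to 14.9 ± 2.03 CPM in R272K cells, against 21.7 ± 2.57 CPM in WT cells (SD, n = 3 each; -0.54, SE 0.12, adjusted p = 0.0488), just inside the threshold. IRF7 lost its call without any 1 R272K library or WT replicate 2, and the list then had 0 calls. Those fits called 0.202% to 0.268% of all tested genes lower. The IRF7 call was also lost with upper quartile scaling (adjusted p = 0.0547), a filter of 1 CPM in 3 libraries (0.0531), a fit that was not robust (0.0516), limma-voom (0.0561) and all 3 TPM fits. It held in 9 of 20 alternatives, with log2 fold changes from -0.65 to -0.45. STAT2 (-0.04, adjusted p = 0.828) and IRF9 (0.03, adjusted p = 0.951), transcription factors activated downstream of interferon receptors, were not called. TICAM1, the adaptor of TLR3 (-0.17, adjusted p = 0.407), and IKBKE, the kinase related to TBK1 (0.25, adjusted p = 0.226), were not called either.

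No gene was called among 11 tested DNA sensors, nucleases and STING regulators, 0 by edgeR, DESeq2 or limma-voom, with a median of -0.04. EdgeR called 0.528% of all tested genes lower and 0.685% higher, so 0 of 11 is near the share over all genes. At an unadjusted p under 0.05 the list had 3, IFI16, PQBP1 and ENPP1, beside 14.3% of all tested genes. IFI16, a DNA-binding sensor, stood at 7.52 CPM in R272K and 9.83 CPM in WT cells (-0.39, SE 0.129, adjusted p = 0.185). PQBP1, reported to assist cGAS, stood at 58.8 and 71.2 CPM in R272K and WT cells (-0.28, SE 0.095, adjusted p = 0.202), with WT replicate 1 the highest library, and was called with no filter (adjusted p = 0.0417, in a range of 0.0417 to 0.529). Without WT replicate 1 the PQBP1 value was -0.15 (SE 0.0609, adjusted p = 0.166). AIM2, ZBP1, TREX1, RNASEH2A and NLRC3 were not tested. TREX1 was listed at 0 in all 6 libraries, and RNASEH2A had 12 counts in R272K and 23 in WT libraries together. The counting settings are not stated, so these values do not show that the transcripts were absent.

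Of 11 eIF2 kinases, PKR partners and eIF2 phosphatase subunits, 1 fell, 0 rose and 10 were not called (median 0.02). The shares over all tested genes were 0.528% called lower and 0.685% called higher. PPP1R15A, which directs dephosphorylation of eIF2, fell to 100.4 ± 2.83 CPM in R272K cells, against 147 ± 6.5 CPM in WT cells (SD, n = 3 each), with a log2 change of -0.55 (SE 0.0634, adjusted p = 0.000471), and was called in all 20 alternatives. The other eIF2 kinase genes were not called, with EIF2AK1 at 0.16 (adjusted p = 0.232), EIF2AK3 at 0.15 (adjusted p = 0.395) and EIF2AK4 at 0.03 (adjusted p = 0.871). Without WT replicate 1, EIF2AK1 was called higher (0.17, adjusted p = 0.0106), in a fit that called 2.94% of all tested genes higher. ADAR, which edits double-stranded RNA and limits its sensing, stood at 492 and 496 CPM in R272K and WT cells (-0.01, adjusted p = 0.97). WT replicate 1 had the lowest ADAR level, 424 CPM, and without it the log2 fold change was -0.11 (SE 0.0369, adjusted p = 0.0748).

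**Figure D3:**
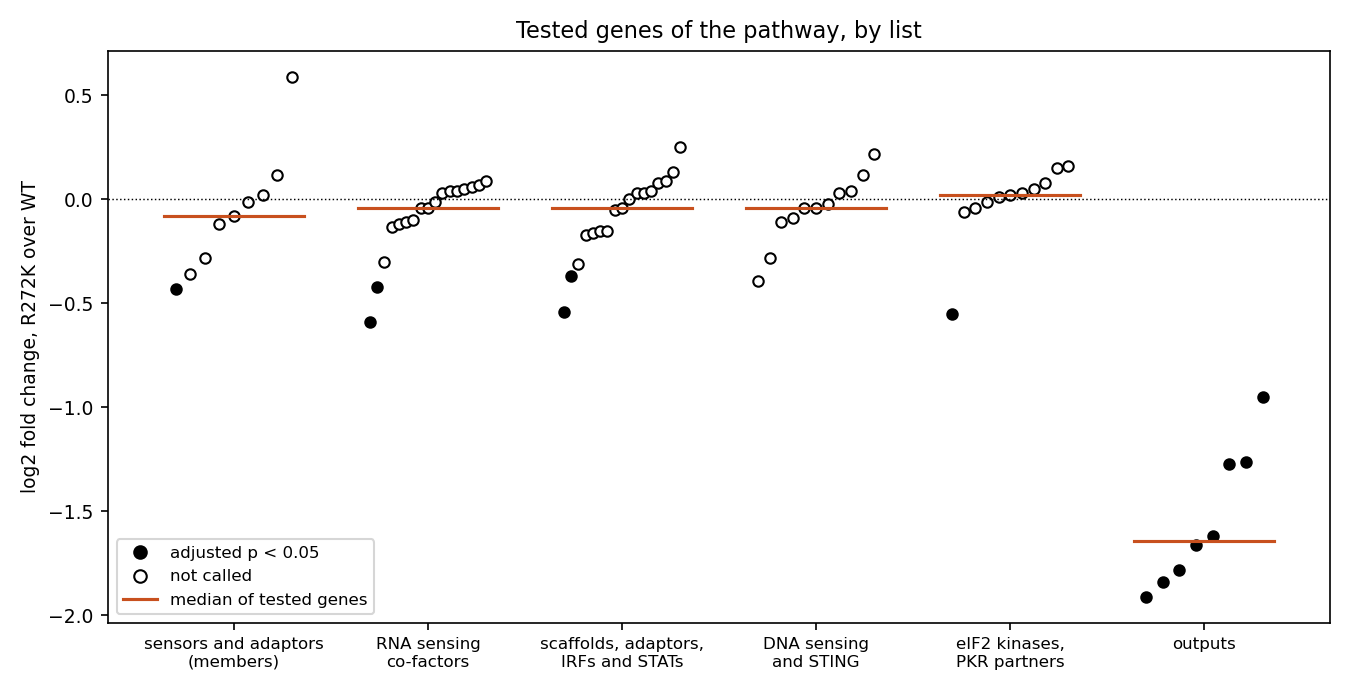
Log2 fold change of R272K over WT for each tested gene of the members and of 5 lists, with filled points for adjusted p below 0.05 and a line at the median. The medians lie between -0.08 and 0.02 except for the outputs, at -1.64, where all 8 tested genes are called.

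The last list held outputs of the pathway, interferons and interferon-induced genes. Beside 0.528% of all tested genes called lower, all 8 of its tested genes fell, with a median log2 fold change of -1.64, from -1.91 to -0.95. Among them IFNL2 and IFNL3 are near-identical copies whose reads the counting could divide, so their separate values are uncertain. This list was drawn up with those results known, so its direction is no independent evidence. IFIT2, which encodes an interferon-induced RNA-binding protein, had 46.7, 43.5 and 44.3 CPM in R272K libraries and 142, 144 and 139 CPM in WT libraries, with a log2 change of -1.66 (SE 0.0653, adjusted p = 2.14e-08). IFNL1, a type III interferon gene, had 6.88, 8.10 and 6.89 CPM in R272K libraries and 29.5, 26.7 and 22.1 CPM in WT libraries, with a log2 change of -1.84 (SE 0.128, adjusted p = 4.91e-06). IFIT1 (-1.62, adjusted p = 1.36e-07) and IFIT3 (-1.27, adjusted p = 3.83e-06) were the others named by the rule for this list, and all 8 genes were called with each library left out in turn. IFNB1 and CXCL10 had too few counts to be tested, with 4 and 24 counts in R272K libraries together and 24 and 39 in WT libraries. Whether outputs and members differ in the size of change was not tested.

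**Figure D4:**
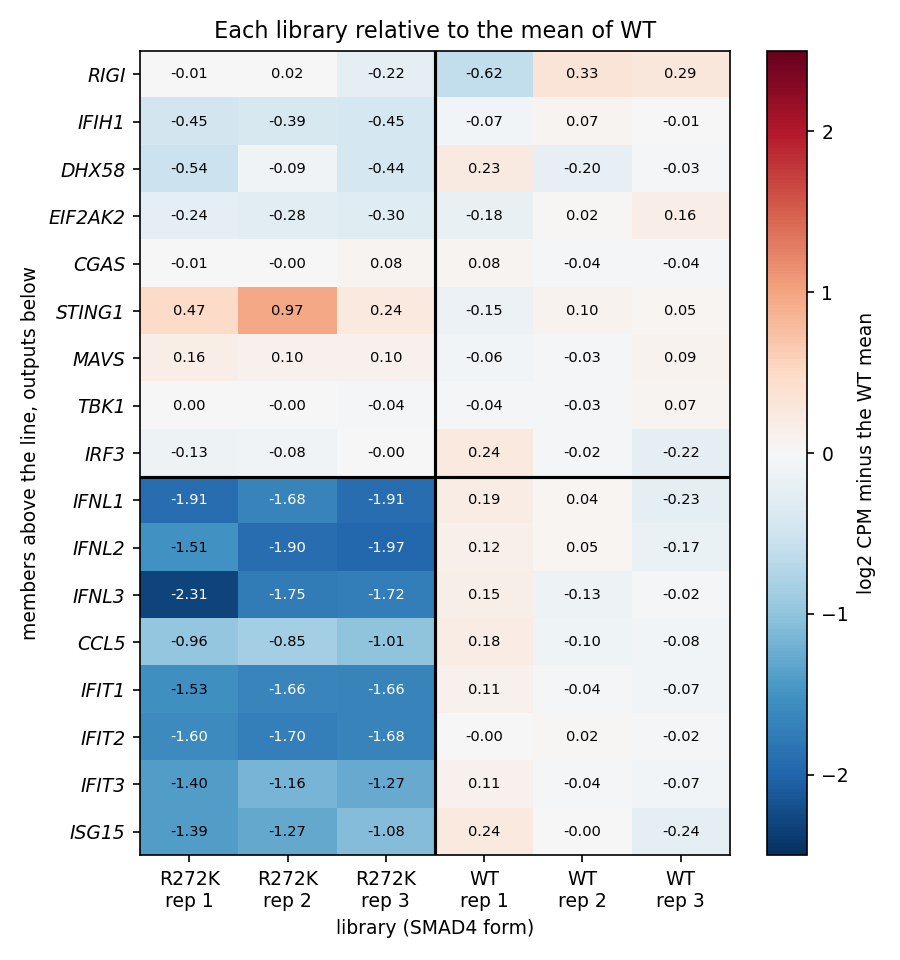
Log2 CPM of each library minus the mean of the WT libraries, for 9 members above the black line and 8 outputs below it, with R272K libraries left of WT libraries. Outputs lie at -0.85 or lower in every R272K library, IFIH1 between -0.45 and -0.39, and the lowest RIGI value, -0.62, is in WT replicate 1.

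The tested genes whose log2 CPM over the 6 libraries was most like that of IFIH1, the member with the smallest p, were STEAP3 (Pearson's r 0.998), LTBP4 (0.996), SMAD4 (0.994), LINC02609 (0.992) and CYP1B1 (0.989). The libraries fall into 2 groups that each of these genes separates, so r mainly gives that separation and its evenness. Among them SMAD4 and CYP1B1 (-0.66, adjusted p = 3.52e-05) were called. Within the members, r with IFIH1 was 0.84 for EIF2AK2, 0.64 for DHX58 and 0.27 for RIGI, and -0.75 for MAVS and -0.67 for STING1.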

How the data were processed

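Per the submitters' processing notes, reads passed through fastp 0.23.0 and HISAT2 2.1.0 against GRCh38, with SAMtools and with HTSeq 0.10.0. The sources used here do not state settings, strandedness or the annotation release. Oligo(dT) beads selected polyadenylated RNA, per the labels' protocols. The authors deposited unnormalized counts for each symbol and, as a signal scaled by gene length, TPM. Values of 453 symbols were repeated on 1875 extra lines, and each symbol was used once. TPM then summed to 1000000 per library and was proportional to count over gene length (largest relative deviation 1.3e-14).

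Genes passing edgeR's filter (minimum count 10, minimum total 15) were tested with the robust quasi-likelihood test of edgeR 4.0.16 after TMM scaling, two-sided. The fit held the 6 libraries and 1 term, the group. Benjamini-Hochberg adjustment ran over 15911 genes. The test was checked on simulated data. CPM uses TMM-scaled totals, and SE is the log2 fold change divided by the square root of F. Replicates differed beyond sampling noise (chi-square over its degrees of freedom at least 1.80). R 4.3.3, limma 3.58.1, DESeq2 1.42.0, Python 3.11.15, pandas 2.3.3 and matplotlib 3.10.9 were also used.

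Members, lists and tests were chosen with earlier results of these data known. Named were the 10 members, SMAD4, up to 4 called genes per list by smallest p (the 2 of smallest p where none was called) and the 5 genes most like the member of smallest p. A gene that the rule takes is not reported here. Other list genes were named after their values were seen. Alternatives were other scalings, filters, tests, a replicate block, each library left out, TPM and a gene length correction.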

Additional observations from a re-analysis of the deposited data

How the results depend on the processing

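1 member was called lower on all 6 libraries. The count was 2 (IFIH1 and EIF2AK2) with no filter and with the dependence on gene length taken out, and 0 with limma on log2(TPM + 1), log2(TPM + 0.1) or log2(TPM + 1) with no filter. It ranged from 0 to 2 when 1 library was left out. The count called higher was 0 in every alternative run. Of all genes tested, 193 were called. That count was 474 with no filter, 623 with the length dependence taken out, 57, 55 and 30 in the TPM fits in the same order, and 55 (without R272K replicate 3) to 875 (without WT replicate 1) when 1 library was left out. The cause of these differences was not tested. With the replicate number as a block, 1 member and 262 genes were called. Same-numbered libraries did not deviate together (r -0.065, -0.007 and -0.012 across genes). With 3 libraries per group this cannot show whether the numbers mark shared handling. In the fit with the block, IFIH1 and the other members kept their side of the threshold. Low counts limit TLR3, STING1 and DHX58, whose intervals above cover counting error only.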

Other observations

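Among genes that overlap a member on the other strand, EIF2AK2 shares 35 bases with GPATCH11 (log2 fold change 0.03, edgeR adjusted p = 0.864) and 775 with the pseudogene ARL14EPP1, which had 5 or fewer counts in each library. TBK1 shares 812 bases with AC135279.3, which had 6 or fewer counts in each library.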
